A study of Mus musculus with 11 samples.

Results

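Camta1 is a long gene on distal chromosome 4 of the mouse (Mus musculus), and it was one of the autosomal stretches most densely called in Xist pulldowns from female cells. The locus was taken as chr4:150430000-151240000 on mm9, a window of 810 kb around the gene body, and its members were all peaks that overlapped it by at least 1 bp. There were 145 such peaks among 19818 in 6 lists. They numbered 29 and 26 in the lists of day 2 replicates 1 and 2, 42 and 29 in those of day 4, 19 in female fibroblasts and 0 in male fibroblasts. The window was chosen because these lists hold many peaks there, so its values are a description and carry no test.

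The 6 lists came from RNA antisense purification and DNA sequencing (RAP-seq), in which biotinylated probes capture Xist RNA from crosslinked, fragmented chromatin and the DNA bound with it is sequenced. Female epiblast-like cells (EpiLCs) were sampled on day 2 (D2, 2 libraries) and day 4 (D4, 2 libraries) after embryonic stem cells had been moved from 2 inhibitors plus LIF into Activin A and bFGF. Female and male mouse embryonic fibroblasts (MEFs) gave 1 library each and have no replicate check. Per the labels no group received any other agent, and strain, stem cell line and fibroblast source are not given in the sources used here. Nothing in the labels says that replicates were separate cultures, so the spread between them may be technical. Peak lists hold no expression values, so the cell types could not be checked against markers. The lists were restricted to autosomes, and sequencing depth is unknown for all 6 libraries.

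As background, Xist, a long noncoding RNA, spreads over an X chromosome of female cells and recruits silencing factors, among them SPEN and the Polycomb complexes. Male cells normally do not express it, so the male list was read as background of the pulldown in MEFs. Camta1 encodes a calmodulin-binding transcription activator, a factor with a CG-1 DNA-binding domain and calmodulin-binding IQ motifs. It is best known for its role in neurons, and rearrangements of the human gene cause a disorder with ataxia and intellectual disability. Most of the gene body consists of very long introns.

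In RefSeq's table, made on GRCm38.p6, Camta1 spans 802 kb on the minus strand. Its transcription therefore starts at the high-coordinate end of the window and runs toward the low-coordinate end. Beyond the low-coordinate end lie Gm38529, Vamp3 (a vesicle fusion protein) and Per3 (a circadian clock protein), and beyond the gene's start lie Dnajc11, Thap3 and Phf13. The table holds 9 further genes within the span, of which 8 are long noncoding RNAs and 1, Gm13090, is listed as protein coding. Exons and introns could not be assigned to the peaks, since no mm9 annotation was used here. The 250 bases before the gene's start are shown because of the peaks at that end of the gene. In every EpiLC list a peak there ranked high by fold enrichment within the locus. They are given 5′ to 3′ on the gene's strand, with each CG pair in capitals.
Camta1 promoter (RefSeq, GRCm38.p6, minus strand): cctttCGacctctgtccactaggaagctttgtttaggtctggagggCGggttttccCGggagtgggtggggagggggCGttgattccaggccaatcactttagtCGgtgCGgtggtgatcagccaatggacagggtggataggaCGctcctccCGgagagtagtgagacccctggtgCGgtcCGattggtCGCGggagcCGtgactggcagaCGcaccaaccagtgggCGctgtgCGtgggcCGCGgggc
This stretch is rich in G and C. It holds 18 CG pairs, against a median of 6 over 32851 mouse promoters of the same length, 78.3% of which hold fewer. Its content of G and C is 63.6%, against a median of 52.4%. The position of this promoter on mm9 was not determined, so whether a peak covers it was not measured.

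**Figure D1:**
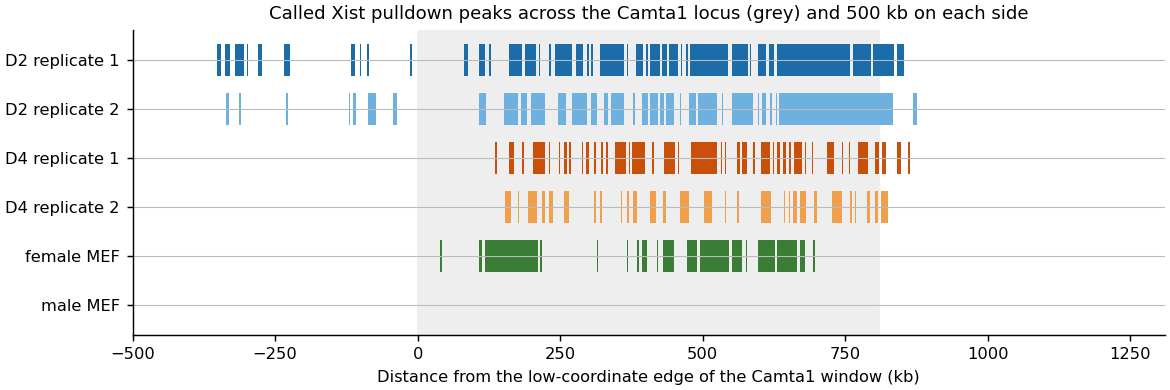
Each row is 1 library and each block a called peak, placed by its distance in kb from the low-coordinate edge of the Camta1 window (grey), with 500 kb on each side. The 5 female lists fill much of the window, no EpiLC peak starts in its first 80.77 kb, and the male MEF row is empty.

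At D2 most of the locus was called, and at D4 a smaller part in shorter pieces. The D2 lists covered 515 and 485 kb of the window in replicates 1 and 2, which is 63.6% and 59.8% of it. The D4 lists covered 295 and 194 kb, or 36.4% and 23.9%. Both D2 libraries thus lay above both D4 libraries. The mean was 499.95 ± 21.7 kb at D2 and 244 ± 71.2 kb at D4 (SD, n = 2 each). This is a 2.05-fold difference, and its size of 256 kb exceeded the SD of both days. Within replicate 1 the D2 list covered 1.75 times the D4 list, and within replicate 2 it covered 2.50 times. No test was run, because the locus was chosen on these lists and 2 libraries against 2 cannot give an exact permutation p below 0.333.

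The order of the day means turned when the lists were given an equal number of peaks. D2 lists held 8227 and 7544 peaks in all, D4 lists 1553 and 1148. With each list reduced to its 1020 strongest peaks by −log10 q, the number in the shortest female list, D2 replicates covered 57.6 and 176 kb of the locus with 3 and 2 peaks. D4 replicates then covered 275 and 178 kb with 34 and 26 peaks, so the days were nearly level in replicate 2. The equal number keeps 12.4% and 13.5% of the D2 lists but 65.7% and 88.9% of the D4 lists. The Camta1 peaks were kept at 10.3% and 7.69% at D2 and at 80.95% and 89.7% at D4, so they were retained about as often as their lists in D4 replicate 2, more often in D4 replicate 1 and somewhat less often at D2.

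The number of peaks did not follow the covered length. D4 replicate 1 had the most, 42, and D2 replicate 2 had 26, with 29 in both other EpiLC lists. The mean was 27.5 ± 2.12 at D2 and 35.5 ± 9.19 at D4 (SD, n = 2 each), a difference smaller than the spread between the D4 replicates. The days differed in the length of the pieces. Median peak length in the locus was 11371 and 10766 bp at D2 and 3412 and 5334 bp at D4, so both D2 medians lay above both D4 medians. Over the whole lists the medians were 3930 and 3562 bp at D2 and 2881 and 2764 bp at D4. The pieces called at Camta1 were thus longer than the typical piece of each EpiLC list. In the female MEF list they were not, with a median of 4451 bp against 5518 bp over the whole list.

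Long peaks carried most of the covered length. Peaks of at least 10 kb numbered 15 in each D2 list and held 89.7% and 91.9% of the length called in the locus. At D4 they numbered 9 and 7 and held 63.6% and 52.6%. In female MEFs there were 7, with 86.8% of the length. The longest peak of D2 replicate 1 ran from 151059926 to 151188513 (129 kb, fold enrichment 2.75), followed by 150907804 to 150974795 (67.0 kb, 2.83) and 150749614 to 150792649 (43.0 kb, 2.73). In D2 replicate 2 the longest ran from 151064348 to 151264368 (200.02 kb, 3.10), past the edge of the window, followed by 150980513 to 151018756 (38.2 kb, 2.95) and 150921893 to 150955396 (33.5 kb, 2.97). The longest peaks of both D2 lists thus lay in the same part of the gene, toward its start.

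At D4 that long block was broken up. The longest peaks of D4 replicate 1 were at 150910141 to 150955566 (45.4 kb, fold enrichment 2.94), 150806798 to 150829566 (22.8 kb, 2.91) and 150633078 to 150653296 (20.2 kb, 2.89). Those of D4 replicate 2 were at 151156399 to 151174880 (18.5 kb, 2.90), 151032919 to 151050108 (17.2 kb, 3.02) and 150889591 to 150905417 (15.8 kb, 2.83). The 3 longest peaks of the D4 replicates did not overlap each other. Among all peaks of the locus, 26 of 42 in D4 replicate 1 touched a peak of D4 replicate 2. In the other direction 27 of 29 did.

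**Figure D2:**
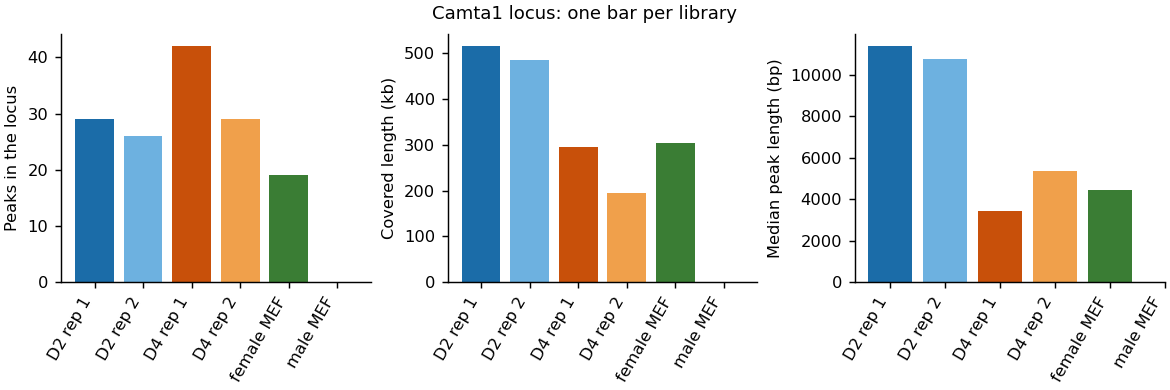
Bars give, for each library, the number of peaks in the locus, the covered length in kb and the median peak length in bp (no value for male MEF, which has 0 peaks). The D2 libraries cover 515 and 485 kb and the D4 libraries 295 and 194 kb, while D4 replicate 1 has the most peaks, 42.

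The fold enrichment, the authors' ratio of pulldown signal over the peak caller's background, was modest at every peak. Its median in the locus was 2.65 and 2.83 at D2, 2.92 and 2.86 at D4 and 2.90 for the female MEF list, and the whole range over the 145 peaks was 2.40 to 3.67. Medians over the whole lists were 2.61, 2.80, 2.82, 2.85 and 2.90 in the same order, so the locus medians lay close to those of the lists, furthest above in D4 replicate 1. A fold enrichment of 3 or more was reached by 1 and 2 peaks at D2 (3.45% and 7.69% of the locus peaks, against 4.4% and 13.6% of the whole lists). At D4 it was reached by 14 and 4 (33.3% and 13.8%, against 15.3% and 17.2%), and in the female MEF list by 5 (26.3%, against 24.0%). The share was thus well above that of the list in D4 replicate 1 alone. A −log10 q of 2 or more was reached by 3 and 2 peaks at D2 (10.3% and 7.69%, against 13.3% and 10.4%), 7 and 1 at D4 (16.7% and 3.45%, against 10.4% and 7.32%) and 1 of the female MEF list (5.26%, against 5.1%). Most calls at Camta1 were weak, as were most calls of each list.

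Of the first 3 peaks by fold enrichment in each list, most were at least 10 kb long at D2 and most were shorter at D4. The very first differed between the libraries of a day. In D2 replicate 2 the first by fold enrichment was a peak of 191 bp at 150571340 to 150571530 (3.43), which no other EpiLC list called. In D4 replicate 1 it was at 150961814 to 150964220 (3.49), and in D4 replicate 2 at 150739004 to 150742234 (3.67). The D4 replicate 1 list also held 151232541 to 151239161 (3.47) and 150613391 to 150616267 (3.20). In D2 replicate 1 the first 3 were 151229376 to 151265360 (3.07), 150871158 to 150886582 (2.86) and 151013618 to 151014448 (2.84). The remaining places in the first 3 went to long peaks already named in D2 replicate 2 (3.10 and 2.97), and in D4 replicate 2 to 151032919 to 151050108 (3.02) and 151232739 to 151236997 (3.02).

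The end of the gene that holds its start carried a peak of high rank within the locus in all 4 EpiLC lists. The segment at 151232739 to 151236997, 4.26 kb long, was called in every EpiLC list. Its fold enrichment was 3.07 and 3.10 at D2 and 3.47 and 3.02 at D4, which ranked 1 of 29, 2 of 26, 2 of 42 and 3 of 29 among the peaks of the locus. The D2 values belong to peaks of 36.0 kb in replicate 1 and 200.02 kb in replicate 2, not to the segment alone. Both of these peaks cross the window's edge. The segment was picked out after its values were seen. The female MEF list did not call it.

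**Figure D3:**
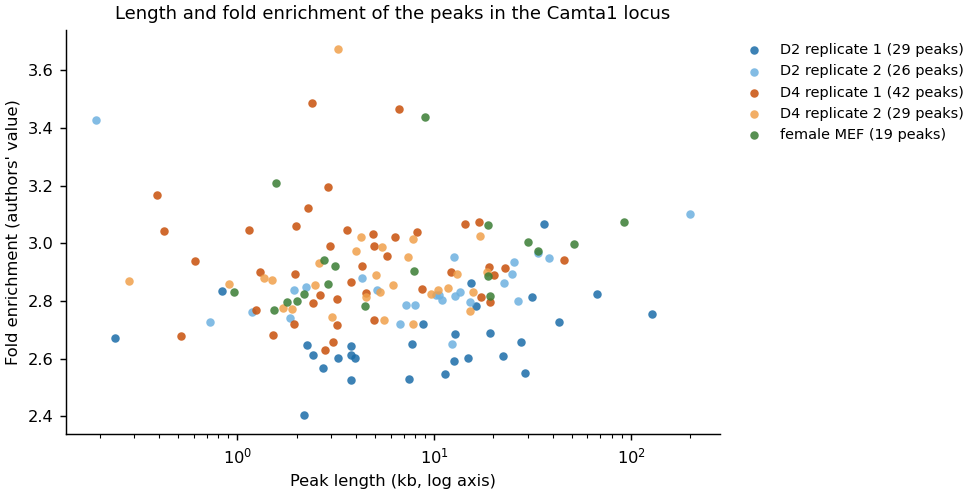
Each point is a peak of the locus, with its length in kb on a log axis and the authors' fold enrichment, coloured by library. Fold enrichments lie between 2.40 and 3.67 at all lengths, and the longest peaks, of 200.02 and 129 kb, are in the D2 lists.

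Calls were not spread evenly along the gene. The first EpiLC peak began 80.8 and 107 kb from the low-coordinate edge at D2 and 118 and 152 kb from it at D4, so the end of the gene body stayed uncalled in these lists. In 10 bins of 81 kb, the first held 0.284% and 0% covered length at D2, 0% at D4 in either replicate and 3.88% in the female MEF list. The high-coordinate part of the window, 405 kb long with the gene's start, was covered over 82.5% and 77.0% at D2, against 44.7% and 42.7% of the low-coordinate part. At D4 the shares were 45.7% and 31.3%, against 27.0% and 16.6%. All 4 EpiLC lists thus covered more of the part toward the gene's start. So did the female MEF list, with 46.2% against 28.8%.

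The 2 days differed most in the last 2 bins. There the D2 lists covered 100% and 100% of the ninth bin and 88.5% and 100% of the tenth. The D4 lists covered 46.9% and 32.7% of the ninth and 35.4% and 36.7% of the tenth. In the bins before, from the third to the eighth, D2 coverage ran between 56.4% and 91.5% and D4 coverage between 15.7% and 58.4%. The centre of the covered length lay 491 and 498 kb from the low-coordinate edge at D2 and 485 and 481 kb at D4, a difference of 11.6 kb between the means. That difference is small beside the length of the gene and fell to 5.10 kb with the window widened by 50 kb on each side. It was 211 kb among lists of equal number of peaks, where the D2 lists kept 3 and 2 peaks.

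**Figure D4:**
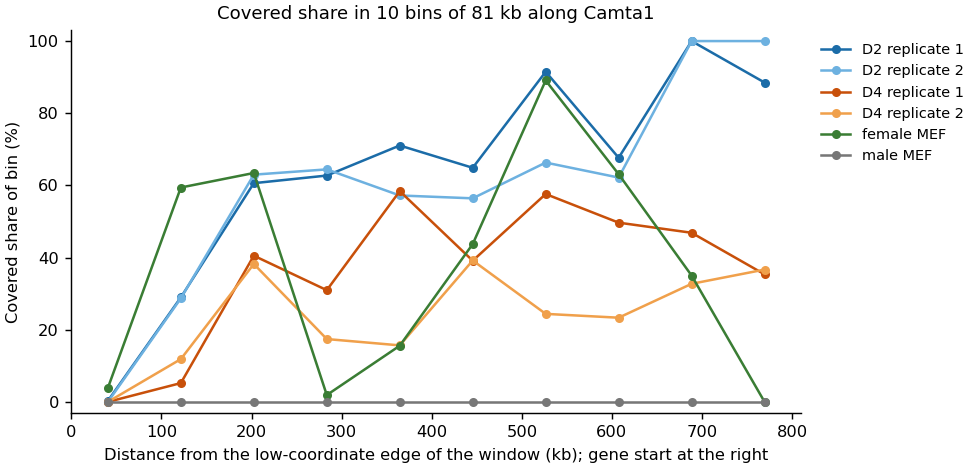
Covered share in percent of each of 10 bins of 81 kb, by distance in kb from the low-coordinate edge, with 1 line per library and the gene's start at the right. D2 lists reach 100% in the ninth bin, while the female MEF line is at 0% in the tenth.

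As deposited, the D2 lists shared more of the locus than the D4 lists did. The D2 consensus, covered in both lists, held 392 kb in 33 segments, 48.3% of the window, with a longest segment of 124 kb. The D4 consensus held 97.7 kb in 29 segments, 12.1% of the window, with a longest segment of 15.5 kb. This order turned with lists of equal number of peaks (D2 42.2 kb, D4 76.1 kb) and with a fold enrichment of 3 or more required (10.6 and 19.8 kb). The Jaccard index, the shared over the joint length, was 0.644 between the D2 replicates and 0.250 between the D4 replicates. Over the whole lists it was 0.395 and 0.243, so the D4 index at Camta1 was close to that over the whole lists. Lists that cover more of a window also overlap more in it, so the indices of the days are not on equal terms.

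Nearly every D4 peak at Camta1 touched a D2 peak. Of the D4 replicate 1 peaks 40 of 42 did, against 73.0% over the whole list, and of the D4 replicate 2 peaks 29 of 29 did, against 68.3%. Seen from D2, 23 of 29 peaks in replicate 1 and 23 of 26 in replicate 2 touched a D4 peak, against 10.4% and 11.7% over the whole lists. These shares are high where both lists cover much, and D2 and D4 lists may share an input in peak calling. By length, 66.6% of the D4 consensus lay in the D2 consensus and 95.2% of it in either D2 list, which together covered 75.1% of the window. In the other direction 16.6% of the D2 consensus lay in the D4 consensus.

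As deposited, few positions were particular to D4. The D2 lists together covered 75.1% of the window, so only the rest could be called at D4 alone. The consensus was 48.3% of the window at D2 and 12.1% at D4. The lengths that follow were not measured with lists of equal number of peaks. Both D2 lists and neither D4 list called 146 kb, while both D4 lists and neither D2 list called 4.67 kb, in 3 segments of which the longest was 151041593 to 151045602 (4.01 kb). Of the other pairs of the 4 libraries, both replicates numbered 1 alone called 30.8 kb and both numbered 2 alone 13.4 kb. D2 replicate 1 with D4 replicate 2 alone called 21.2 kb, and D2 replicate 2 with D4 replicate 1 alone 20.9 kb. All 4 EpiLC lists covered 65.1 kb in 22 segments.

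Female MEFs called the locus over 304 kb, 37.5% of the window, with 19 peaks. As deposited, this lay below both D2 libraries and just above the higher D4 library. It differed from the D4 mean by less than the D4 SD. The order turned with lists of equal number of peaks, where the MEF list was kept whole. The largest EpiLC value there was 275 kb, in D4 replicate 1, and the smallest was 57.6 kb, in D2 replicate 1. Female MEFs, still at 304 kb, then covered more than any EpiLC list. Their longest peak, 150548324 to 150640407 (92.1 kb, fold enrichment 3.07), lay toward the end of the gene, where D2 lists covered 49.4% and 53.0% and D4 lists 24.0% and 31.3% of the same stretch. The next were 150924758 to 150976103 (51.3 kb, 3.00) and 151060899 to 151094645 (33.7 kb, 2.97). The highest female MEF peak was 151100343 to 151109317 (8.98 kb, 3.44), followed by 151005638 to 151007200 (3.21).

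The female MEF list left stretches empty that the EpiLC lists called. Beyond the last MEF peak, from 151126804 to the window's edge (113 kb), the MEF list called nothing. In this stretch, which includes the gene's start, D2 lists covered 91.8% and 100% and D4 lists 36.5% and 31.7%. A second empty stretch ran from 150652440 to 150743939 (91.5 kb), where D2 lists covered 56.2% and 58.0% and D4 lists 26.4% and 20.3%. Both stretches were picked out after the values were seen, and they rest on 1 MEF library. Only the female MEF list called a peak in the first 80.77 kb of the window, at 150468864 to 150472007.

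Where female MEFs had calls, these mostly touched EpiLC calls. Of the 19 MEF peaks 18 touched a D2 peak, against 45.4% over the whole list, and 15 touched a D4 peak, against 23.9%. These counts are high where the other lists cover much. Of the MEF length 86.4% lay in either D2 list, which together covered 75.1% of the window. In either D4 list lay 60.2% of it, with 48.3% of the window covered. By length, 54.6% of the MEF calls lay in the D2 consensus, which covered 48.3% of the window, and 18.8% in the D4 consensus, which covered 12.1%. Each share lay a little above the part of the window that the consensus covers. The D2 share was 0% with a −log10 q of 2 or more, with a fold enrichment of 3 or more and with lists of equal number of peaks. The D4 share was 0%, 10.3% and 18.5% in the same order, and with a single D4 list in place of the consensus it was 31.8% for replicate 2 and 47.3% for replicate 1. Seen from the EpiLC side, 42.3% of the D2 consensus and 58.5% of the D4 consensus lay in MEF calls. MEFs called 31.6 kb that no EpiLC list called.

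All 5 female lists together called 44.2 kb of the locus in 13 segments. This rested on the weak calls, since it was 0 kb with a −log10 q of 2 or more, with a fold enrichment of 3 or more and with lists of equal number of peaks. It was 97.6 kb without D4 replicate 2. The 5 longest were 150932344 to 150945382 (13.0 kb), 151034378 to 151041553 (7.18 kb), 150633078 to 150637543 (4.47 kb), 151090531 to 151094645 (4.12 kb) and 150990757 to 150994412 (3.66 kb). In the longest the fold enrichment was 2.83 and 2.97 at D2, 2.94 and 2.89 at D4 and 3.00 for female MEFs. These are values of whole peaks, which were longer than the segment in every female list but D4 replicate 2. These 13 were 14.3% of the 91 segments called in all 5 female lists over the autosomes, and 27.7% of the 47 on chromosome 4. By length the shares were smaller, 4.33% of 1022 kb over the autosomes and 19.6% of 226 kb on chromosome 4. Conversely 139 kb, 17.1% of the window, was called in no female list, and 38.9 and 38.8 kb of it were the 2 pieces at the gene's end.

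The male MEF list had 0 peaks in the locus. It held 23 peaks on chromosome 4, and the nearest lay 1934 kb below and 2690 kb above the window. None of the 19 female MEF peaks touched a male peak, against 1.67% over the whole female MEF list. By −log10 p the male list held no peak as weak as nearly all of these, since its lowest value was 4.57 and of the female peaks at Camta1 only 1, in D2 replicate 2, reached it. By fold enrichment it did hold such peaks. Its lowest value was 2.84, which was reached by 2 of 29 and 10 of 26 peaks of the locus at D2, 27 of 42 and 18 of 29 at D4 and 12 of 19 in the female MEF list. A window without a male peak was also the usual case, since 10.0% of windows of this length held one.

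The covered share dropped next to the window on both sides. In the 500 kb below the window the D2 lists covered 13.3% and 7.93% with 11 and 7 peaks, and the D4 and female MEF lists called nothing. In the 500 kb above, D2 lists covered 7.44% and 6.41%, D4 lists 3.99% and 2.73%, and the female MEF list nothing. The last peaks of the 2 D2 lists crossed the window's edge and ended at 151265360 and 151264368. Just outside, the nearest peaks above began 31.3 and 28.8 kb from the edge at D2 (fold enrichment 2.95 and 2.91) and 3.74 and 2.30 kb from it at D4 (2.82 and 2.85). Below, the nearest lay 9.73 and 36.2 kb away at D2, 1242 and 5645 kb away at D4 and 2702 kb away for the female MEF list, so on this side the D4 and MEF calls began inside the window. Further above, the calls resumed toward the end of chromosome 4. In the next window of 810 kb, 151240001 to 152050000, the covered share was 8.25% and 8.05% at D2, 12.2% and 5.30% at D4 and 14.0% by the female MEF list. In the following one, 152050001 to 152860000, it was 3.46% and 4.54%, 12.4% and 9.10%, and 35.5%. In the 2 after that, up to 154480000, it ran from 54.1% to 83.3% at D2, from 14.2% to 51.7% at D4 and from 45.3% to 48.8% by the female MEF list. Further below, the D2 lists covered 24.6% and 24.9% of 148810001 to 149620000. The Camta1 locus was thus 1 of several called stretches on distal chromosome 4.

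Among 2857 windows of 810 kb laid over the autosomes, the Camta1 window ranked high in every female list. By covered share it was 14th and 11th at D2, 6th in each D4 list and 15th for female MEFs, and by number of peaks it was 15th, 32nd, 1st, 4th and 9th in the same order. At least 1 peak was held by 38.7% and 36.9% of these windows at D2, 14.2% and 11.7% at D4 and 6.72% for the female MEF list. A window chosen for its peaks must rank high, so the ranks only place it. The locus made up 0.668% and 0.872% of all length called at D2, 3.66% and 3.53% at D4 and 2.19% for the female MEF list, while it is 0.0349% of the autosomal extent. Its part of the calls was thus larger at D4, although less of it was called. Over the autosomal extent the D2 lists covered 3.32% and 2.39% and the D4 lists 0.347% and 0.237%.

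**Figure D5:**
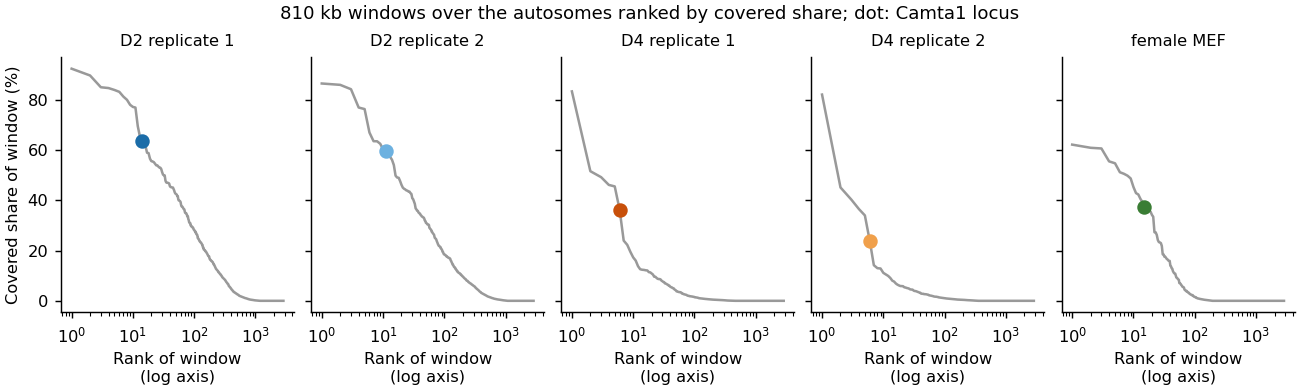
For each female list, the grey line gives the covered share in percent of 2857 windows of 810 kb in falling order against their rank on a log axis, and the dot is the Camta1 locus. The dot lies at ranks 14, 11, 6, 6 and 15 from left to right, below the highest windows.

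The windows with the most similar shares lay on chromosomes 4, 6 and 15. Likeness was the Euclidean distance over the 6 covered shares, in percentage points. The closest was chromosome 4, 152860001 to 153670000, at a distance of 22.3, which was covered over 58.9% and 54.1% at D2, 19.5% and 14.2% at D4 and 45.3% by the female MEF list. The next were chromosome 6, 113237443 to 114047442 (26.0), with higher D4 shares of 49.3% and 45.2%, and chromosome 15, 100858947 to 101668946 (29.7), with a lower MEF share of 17.6%. A covered share of at least 10% in all 5 female lists was found in 7 windows, Camta1 included, and 3 of them were on chromosome 4. In 2 other windows the share was at least that of Camta1 in every female list.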

How the data were processed

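Peak lists of 6 Xist pulldowns were used, 1 per library. The submitters' processing notes name the genome build mm9 and, in no stated order, the tools MACS2 2.2.7.1, Bowtie2 2.2.9, Trim Galore 0.4.1, bedtools 2.26.0, SAMtools 1.9 and Picard. Settings and the input behind each list are not given in the sources used here, and the 5 inputs were not analysed here. The deposited lists give start and end, a score (not used), a fold enrichment as a linear ratio, and −log10 p and −log10 q per peak. These are the authors' own values and served here for describing, ranking and filtering within each list alone. The number and length of called peaks grow with depth, which the lists do not give.

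Peaks were cut at the window's edges for covered length, merged, intersected and compared in Python 3.11.15 with NumPy 2.4.6, by functions tested on 100 simulated sets. Windows of 810 kb were laid from the first to the last peak of each chromosome, on chromosome 4 in phase with the locus. Named peaks are the 3 longest and the 3 of highest fold enrichment per list, the 5 longest segments of all 5 female lists and the 3 most similar windows. The locus, lists and measures were chosen with earlier results of these data known. Replicate numbers are shared by D2 and D4, and the labels mark replicate 1 of both days as data deposited earlier. Whether they pair the libraries was not checked here.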

Additional observations from a re-analysis of the deposited data

How the results depend on the processing

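Of 71 alternative values, 42 stayed within the replicate SD or, where there is none, within 1.5 times of the reported one, 28 moved further and 1 changed direction. Some that stayed could not have changed, such as the mean differences within replicate numbers and the male MEF length at stricter thresholds. With lists of equal number of peaks the covered length of D2 minus D4 was -109.8 kb in place of 256 kb, the difference in peaks -27.5 in place of -8.0, that in covered centre 211 kb in place of 11.6 kb, and the D2 consensus 42.2 kb against 76.1 kb for D4. The length in all 5 female lists and the share of female MEF length in the D2 consensus then fell to 0 kb and 0%.

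With a −log10 q of 2 or more required, the difference in covered length was 100.1 kb, that in centre 232 kb, the D2 consensus 42.2 kb, the D4 consensus 0 kb, the length in all 5 female lists 0 kb, the female MEF length 8.98 kb, both shares of it in a consensus 0%, and 4 D4 peaks in place of 69 touched a D2 peak. With a fold enrichment of 3 or more required, the difference in covered length was 40.8 kb, that in centre 211 kb, the D2 consensus 10.6 kb, the D4 consensus 19.8 kb, the length in all 5 female lists 0 kb, the female MEF length 151 kb and its shares in the D2 and D4 consensus 0% and 10.3%. With stricter thresholds fewer peaks remain by construction. The window widened by 50 kb on each side gave a centre difference of 5.10 kb.

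Leaving out 1 library at a time gave a covered length difference of 205 to 306 kb, a peak difference of -14.5 to -1.5 and a centre difference of 8.05 to 15.1 kb. The consensus of a day then became its 1 remaining list, 485 or 515 kb at D2 and 194 or 295 kb at D4. These lengths therefore measure no agreement between replicates. The length called in all remaining female lists was 46.3 to 97.6 kb, highest without D4 replicate 2. The share of female MEF length in the 1 remaining list was 66.2% or 74.8% for D2 and 31.8% or 47.3% for D4. With the replicate number as a replicate block the mean differences were the same, 256 ± 49.4 kb, -8.0 ± 7.07 peaks and 11.6 ± 7.41 kb (SD of 2 pairs). An overlap of at least 50% of the peak left 65 of 69 D4 peaks, 18 of 18 female MEF peaks against D2 and 13 of 15 against D4. Male MEFs stayed at 0 kb in all 4 alternatives run. Of these only the widened window could have changed the value, since stricter thresholds add no peaks and the male list was not cut to equal number. Unknown depth and calls close to the threshold limit every count here.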
